A study of Mus musculus with 6 samples.

Results

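A set of interferon regulatory factor (IRF) genes was followed in ear skin of mice labelled as lacking the VEGF receptor gene Kdr (Vegfr2) in the lymphatic endothelium. The 6 genes were Irf1, Irf2, Irf3, Irf4, Irf5 and Irf8, of 18482 genes in the deposited count table, and each was matched by its symbol. The set was built around Irf8, which was chosen by its difference between these same knockout and control libraries, and the other members were added as genes of the family. The differences between the groups are therefore given as a description, with no test of the members. Irf7 and Irf9 are left aside as genes of the interferon response, and appear only for comparison.

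Of the 6 libraries, 3 came from control littermates and 3 from mice labelled Vegfr2lecko, lecko standing for the lymphatic-specific knockout, all at postnatal day 21 and all given tamoxifen. RNA was taken from snap-frozen ear skin and enriched for polyadenylated transcripts. The sources used here do not name the Cre driver, the strain or the tamoxifen schedule of these mice. No label ties a library to an animal or litter, so the spread is that between these samples and may be technical. Whole tissue was measured, and blood endothelium makes Kdr too. Total estimated counts were 17242921 to 17825135 per library. Kdr, the targeted gene, fell from 34.2 ± 3.81 CPM (counts scaled to the library's total) in the 3 controls to 10.4 ± 0.732 CPM in the 3 lecko libraries (SD), with an adjusted p of 0.00026 by edgeR. The 12 keratinocyte markers were all present, summing to 27520 to 31130 CPM in controls against 27580 to 29040 CPM in lecko skin. Counts over 4 Y-linked genes were 4272 and 4564 in controls 2 and 3 and between 4 and 21 in the other 4 libraries, so control 1 was the sole control without Y-linked RNA, like the lecko libraries. Each member's difference is given also with sex, read from these genes, as a covariate, and with control 1 as the sole control.

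IRF proteins share an N-terminal DNA-binding domain with conserved tryptophans and bind DNA elements built on repeats of GAAA. Irf3 protein waits in the cytoplasm until nucleic acid sensors lead to its phosphorylation, Irf5 acts downstream of Toll-like receptors, and Irf1 is induced by interferon gamma. Irf2 is a close relative of Irf1 that can compete for the same sites. Irf4 and Irf8 are made mainly in blood cells and bind DNA well only with partners such as PU.1 or BATF. In skin, Irf8 is known for its roles in monocytes, macrophages and type 1 dendritic cells, and Irf4 for its roles in type 2 dendritic cells and T cells.

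The promoters of Irf8, Irf1 and Irf2 are shown because they are the members' windows that held a GAS match. They are not the members whose groups did not overlap: Irf3 and Irf4 did not overlap either and held no GAS match, while Irf2 overlapped. Each stretch is the 250 bases before the first listed start in RefSeq's table of build GRCm38.p6, on the plus strand. Capitals mark matches to TTCNNNGAA, the interferon gamma-activated site (GAS), and to GAAANNGAA, an IRF element. Irf8 lies at chr8:120736108-120736357, Irf1 at chr11:53769764-53770013 and Irf2 at chr8:46739495-46739744.

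Irf8: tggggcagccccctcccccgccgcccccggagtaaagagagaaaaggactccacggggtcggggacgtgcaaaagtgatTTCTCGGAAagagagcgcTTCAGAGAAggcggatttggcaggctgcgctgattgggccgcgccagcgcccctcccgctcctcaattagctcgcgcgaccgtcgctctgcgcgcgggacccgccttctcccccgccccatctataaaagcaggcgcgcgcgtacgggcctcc

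Irf1: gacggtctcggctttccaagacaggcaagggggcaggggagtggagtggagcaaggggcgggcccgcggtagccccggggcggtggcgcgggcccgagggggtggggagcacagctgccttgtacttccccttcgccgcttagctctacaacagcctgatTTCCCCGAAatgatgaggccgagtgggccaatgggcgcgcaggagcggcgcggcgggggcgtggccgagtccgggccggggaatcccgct

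Irf2: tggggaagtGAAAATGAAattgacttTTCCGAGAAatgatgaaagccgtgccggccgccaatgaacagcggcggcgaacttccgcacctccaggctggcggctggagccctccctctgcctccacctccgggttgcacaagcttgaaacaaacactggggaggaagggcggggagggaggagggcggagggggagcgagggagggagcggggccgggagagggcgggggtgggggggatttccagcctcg

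The Irf8 stretch held 2 GAS matches, at positions -171 to -163 and -153 to -145 counted from the start. The Irf1 stretch held 1, at -90 to -82. The Irf2 stretch held 1 GAS match at -224 to -216 and 1 IRF element at -241 to -233, which overlapped a match to GGAANNGAA, the composite element of ETS factors and IRFs, at -247 to -239. Among 32851 promoters of the table, 7.02% held a GAS match, 7.13% an IRF element and 6.99% the composite element in a window of this length, on either strand. The 6 members had 8 listed starts in all, and the second starts of Irf8 and Irf1 held none of the motifs searched. The TATA box string TATAAA was found at -31 to -26 for Irf8 and at -26 to -21 for Irf4, and in 12.4% of all promoters. GAGGAA, an ETS core, was found once for Irf2 and once for Irf4, on the opposite strand (23.3% of all promoters). The exact string GGGANTTTC, 1 form of an NF-kB site (0.94% of all promoters), was found in no member. Other forms of that site were not searched, so its absence is not shown. The windows of Irf3 and Irf5 held none of the 6 motifs. A match is a string of letters here and no measurement of binding.

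**Figure D1:**
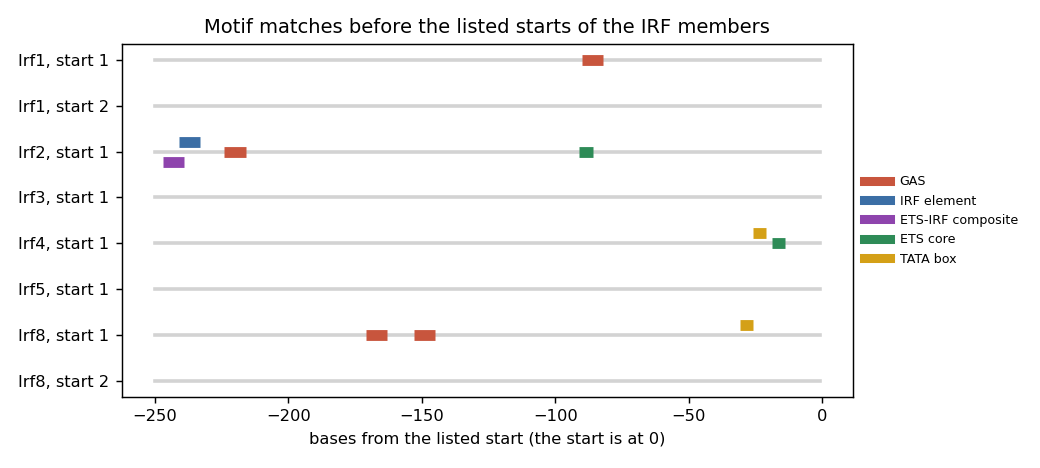
Motif matches in the 250 bases before each of the 8 listed starts, with distance from the start in bases on the x axis and 1 line per start. Coloured blocks are matches: the first Irf8 start carries 2 GAS blocks, the first Irf1 start 1, and the Irf2 start a GAS block beside overlapping IRF and composite blocks.

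Irf8, the factor of monocytes and type 1 dendritic cells, was higher in every lecko library than in every control. It gave 5.94, 5.92 and 5.42 CPM in controls 1 to 3, from 103, 103 and 95 estimated counts. It gave 9.14, 8.82 and 9.53 CPM in lecko libraries 1 to 3, from 162, 156 and 168 estimated counts. The 3 libraries of each group lay close together, and the gap between the groups was 0.56 on the log2 scale. The standard deviation within groups was 0.065. At 95 to 168 estimated counts per library a spread that small is no larger than counting noise, so it is no measure of the gap. The log2 difference was 0.67 (SE 0.11), or 1.59-fold, and it was 0.63 with sex as a covariate and 0.62 with control 1 as the sole control. Between 0.63 and 0.70 was found when any 1 library was left out. The set was chosen around this difference, so its size and steadiness next to the other members are no finding.

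Irf4, the closest relative of Irf8, was also higher in every lecko library than in every control, and its value depended on control 3. Its level was 9.23, 9.14 and 4.91 CPM in controls 1 to 3 and 12.3, 11.3 and 9.99 CPM in lecko libraries 1 to 3. Controls 1 and 2 lay just under lecko 3, while control 3 lay far below the other controls. The log2 difference was 0.53 (SE 0.23), and 0.29 without control 3. It was 0.28 with sex as a covariate and 0.27 with control 1 as the sole control.

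Irf1, the interferon gamma-induced activator, was at 20.2, 17.2 and 16.6 CPM in controls 1 to 3 and 23.7, 23.7 and 24.7 CPM in the lecko libraries. The groups did not overlap, and the lecko libraries were nearly equal. Control 1 was the highest control. The log2 difference was 0.42 (SE 0.09), and it was 0.25 with sex as a covariate and 0.24 with control 1 as the sole control, so the value depended on controls 2 and 3. Irf2, its relative and competitor, overlapped between the groups. It was at 26.9, 24.3 and 24.1 CPM (controls) and 30.3, 22.2 and 26.8 CPM in lecko skin, and lecko 2 was the lowest of all 6 libraries. Its log2 difference of 0.08 (SE 0.11) changed sign without lecko 1 (-0.04), with sex as a covariate (-0.03) and with control 1 as the sole control (-0.03).

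Irf5, which acts downstream of Toll-like receptors in myeloid cells, was at 20.6, 19.4 and 18.0 CPM in controls 1 to 3. In lecko libraries 1 to 3 it was at 25.6, 21.5 and 19.98 CPM, so that lecko 3 lay below control 1. Its log2 difference was 0.21 (SE 0.11), 0.09 without lecko 1, 0.12 with sex as a covariate and 0.11 with control 1 as the sole control. Irf3, the latent factor of virus sensing, had the narrowest range, 1.10-fold from the lowest to the highest library. It was at 36.4, 37.1 and 37.0 CPM in controls, against 33.6, 35.8 and 34.5 CPM in lecko skin, with every lecko library just below every control. Its log2 difference was -0.09 (SE 0.06), -0.07 with sex as a covariate and -0.08 with control 1 as the sole control, and it was negative in all 15 other settings, from -0.11 to -0.07.

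**Figure D2:**
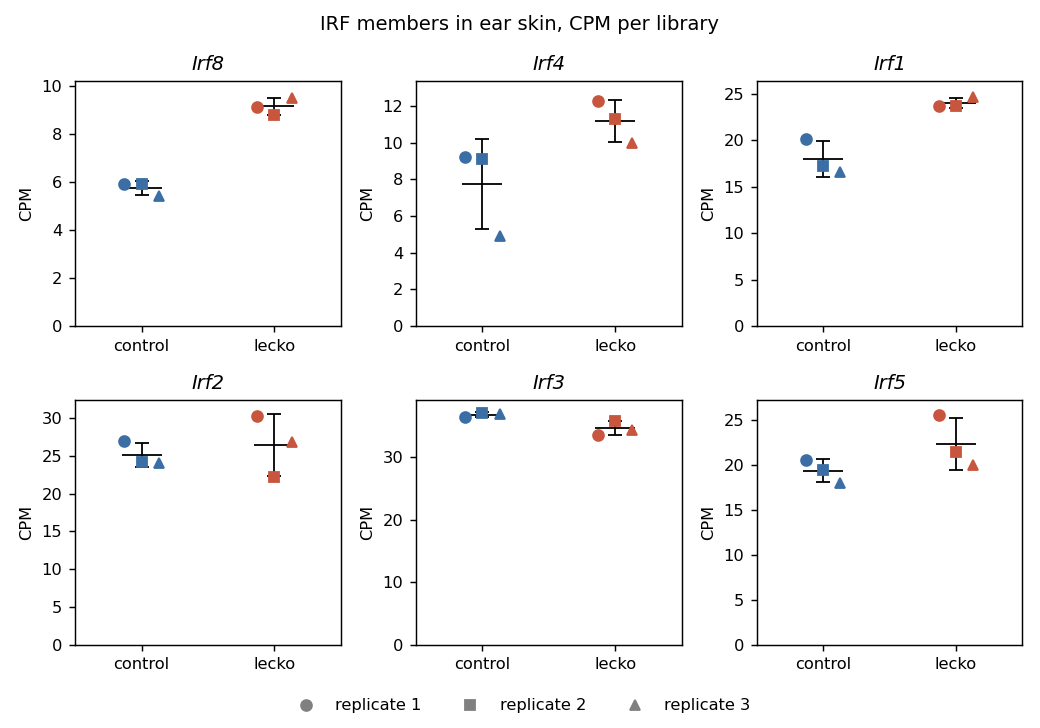
CPM of the 6 members (y axes, starting at 0) in each control and lecko library, with 1 point per library, symbols for the replicate number, and black marks for the mean and SD of 3 libraries. Irf8 sits at 5.42 to 5.94 CPM (controls) and 8.82 to 9.53 CPM in lecko skin, while Irf2 and Irf5 overlap and the control mean of Irf4 is pulled down by control 3 at 4.91 CPM.

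In counts, 3 of the 6 members (Irf8, Irf4 and Irf1) were higher in every lecko library than in every control, as were 7.37% of the 14856 genes tested, and 1 member (Irf3) was lower in every one, as were 7.23% of genes. None of the 6 had an adjusted p under 0.05 in edgeR's quasi-likelihood fit, adjusted by Benjamini-Hochberg over all genes, where 3 genes (0.0202%) were called. The same 3 members had an unadjusted p under 0.05 and were higher, against 4.89% of genes that were higher and 3.68% that were lower at that level. DESeq2 and limma-voom also called 0 members and likewise had 3 at an unadjusted p under 0.05. With sex as a covariate 1 member, and with control 1 as the sole control also 1, had an unadjusted p under 0.05. Because the members were chosen on this contrast, nothing is read from these counts.

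**Figure D3:**
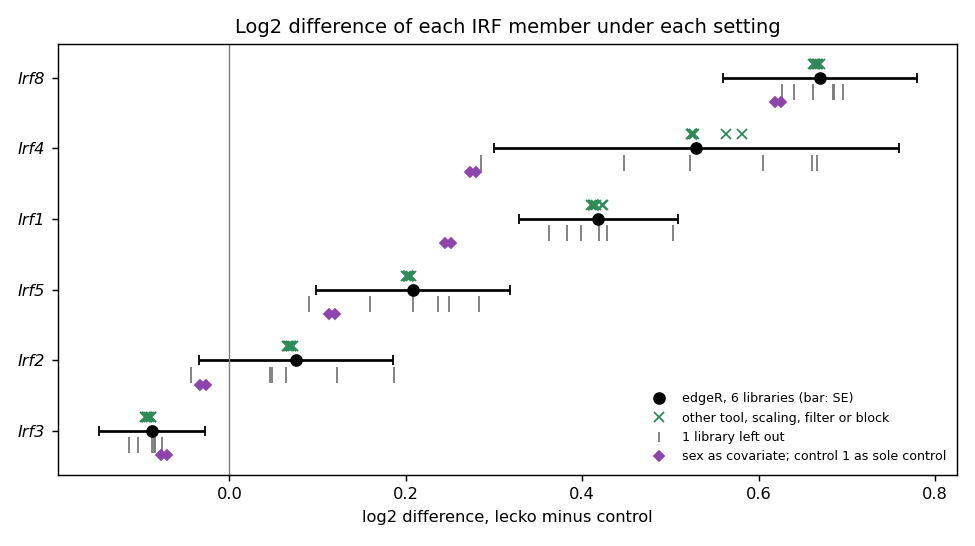
Log2 difference, lecko minus control (x axis), of each member with all 6 libraries (black, bars are SE), with another tool, scaling, filter or the replicate block (green), with 1 library left out (grey) and with sex as a covariate or control 1 as the sole control (purple). The values of Irf8 stay between 0.62 and 0.70, those of Irf4 and Irf1 reach down to 0.27 and 0.24, and those of Irf2 lie on both sides of 0.

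The order of the members in this skin was read from CPM per kilobase of exon, using the exon lengths of GENCODE M21. Irf3 was highest at 16.8 ± 0.175 in controls and 15.8 ± 0.511 in lecko skin (SD, n = 3 each). Irf2 followed at 10.1 ± 0.636 and 10.6 ± 1.64, Irf5 at 7.31 ± 0.481 and 8.45 ± 1.10, and Irf1 at 5.39 ± 0.580 and 7.20 ± 0.172 CPM per kilobase in control and lecko skin. Irf8 and Irf4, the members restricted mainly to blood cells, were lowest. Irf8 was at 1.68 ± 0.0852 in controls and 2.67 ± 0.104 in lecko skin, and Irf4 at 1.63 ± 0.518 and 2.35 ± 0.244 CPM per kilobase.

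Neighbours in this order were compared within libraries. Irf3 over Irf2 had a mean log2 ratio of 0.67 ± 0.20, Irf2 over Irf5 0.39 ± 0.15, Irf5 over Irf1 0.33 ± 0.19 and Irf1 over Irf8 1.56 ± 0.15 (SD over 6 libraries). Each of these 4 was in the same direction in 6 of 6 libraries, with an adjusted p of 0.0391 by a two-sided exact sign-flip permutation test over 5 pairs, from an unadjusted 0.0312, the smallest that 6 libraries allow. Irf8 over Irf4 was 0.14 ± 0.31, in 4 of 6 libraries, and did not differ beyond its spread (adjusted p = 0.375 by the same exact test). The pairs and their directions were taken from the order in these same libraries, so the p-values describe only how steady each ratio was. The order between members rests on the length used: with coding length, Irf1 lay above Irf5 by 0.63 and the order of Irf8 and Irf4 was turned as well. With that length no pair had an adjusted p under 0.05 by the same exact test (0.0521 to 0.125).

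Of the other family genes, Irf7 and Irf9, parts of the interferon response, varied widely within both groups: Irf7 was at 58.7, 37.9 and 10.5 CPM in controls, against 65.3, 13.0 and 45.3 CPM in lecko skin, 6.25-fold from lowest to highest. Irf9 was lowest in control 3 (40.7 CPM) and lecko 2 (36.5 CPM), the libraries that were lowest for Irf7 too. Irf8 had 5.42 CPM in control 3 and 8.82 CPM in lecko 2, the lowest of its group in both cases but within 0.08 of the group's mean on the log2 scale, where Irf7 lay 1.44 and 1.37 below its own. Irf4 followed this in control 3 and not in lecko 2.

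**Figure D4:**
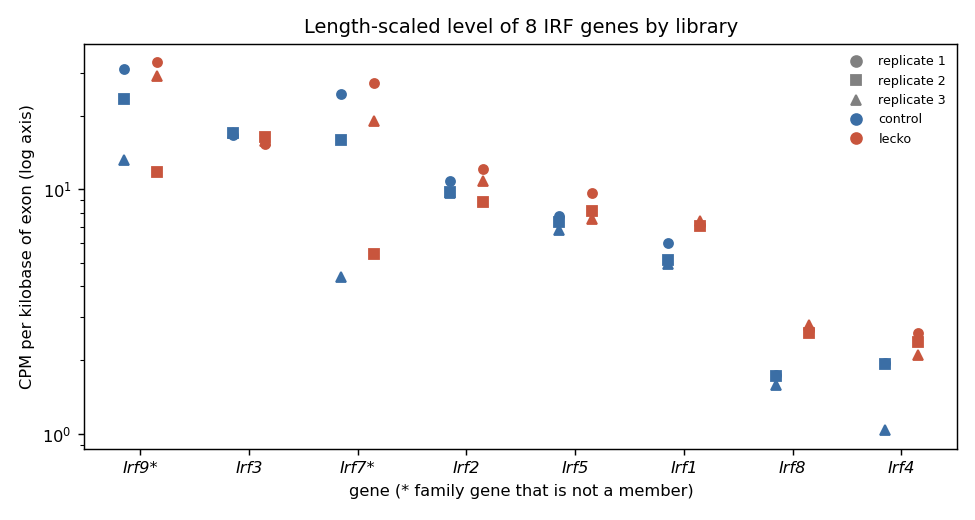
CPM per kilobase of exon on a log axis for the 6 members and, with an asterisk, Irf7 and Irf9, with 1 point per library and colours for control and lecko. Irf3 is the highest member at 15.4 to 16.9, and Irf8 and Irf4 are the lowest. Irf7 spreads widely within each group, from 4.37 to 27.3 over all libraries.

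Genes around the members are described by lists, next to all tested genes, of which 7707 of 14856 had a positive difference and whose median log2 difference was 0.006. The list of genes known for mononuclear phagocytes and Irf8 had a median of 0.31, with 19 of 22 tested genes positive, 5 higher at an unadjusted p under 0.05, 0 called by edgeR and 1 called by DESeq2. In the other 6 lists both tools called 0 genes. Ciita, the transactivator of MHC class II genes, was at 10.96, 10.7 and 11.0 CPM (controls) and 15.01, 16.6 and 17.5 CPM in lecko skin, a log2 difference of 0.59 (SE 0.10) with no overlap. Tlr9, the sensor of unmethylated DNA, was at 1.72 ± 0.415 and 3.17 ± 0.727 CPM (SD, n = 3 each). The median of this list was 0.21 without control 3 and 0.50 without control 2.

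The partners of Irf4 and Irf8 had a median log2 difference of 0.12, with 13 of 22 positive, 4 higher at an unadjusted p under 0.05 and 0 called. Id2, a regulator of dendritic and lymphoid cells, was at 64.9 ± 1.41 and 77.8 ± 1.97 CPM, and Ikzf1, the Ikaros factor, at 12.4 ± 1.32 and 17.7 ± 0.981 CPM in control and lecko skin (SD over 3 libraries each). Neither overlapped between the groups. The list's median was 0.02 without lecko 1, 0.06 without lecko 2, 0.07 without control 3 or with a stricter filter on low counts, 0.19 with sex as a covariate and 0.18 with control 1 as the sole control. The list around Irf4, with genes of type 2 dendritic cells, alternatively activated macrophages and plasma cells, had a median of 0.09 with 11 of 13 positive, 2 higher at an unadjusted p under 0.05 and 0 called. It shares Cd209a, Cd207, Epcam, Mgl2 and Mrc1 with the dendritic cell and macrophage marker lists. Its genes with the smallest p were the lectin receptors Mgl2 (log2 0.45, SE 0.18) and Mrc1 (log2 0.55, SE 0.22), both with overlapping groups. Without control 2 this median was 0.21, and it was 0.16 without lecko 3, 0.15 without lecko 2 or control 1, 0.36 with no filter on low counts and 0.43 with control 1 as the sole control.

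Upstream of Irf3 and Irf5, the sensors and adaptors from the Toll-like receptors to TBK1 had a median log2 difference of 0.12, with 34 of 41 positive, 6 higher at an unadjusted p under 0.05 and 0 called. The median was 0.07 without lecko 1, 0.08 with sex as a covariate and 0.07 with control 1 as the sole control. Irak4, the kinase that Toll-like receptors signal through, was at 12.4, 12.3 and 13.3 CPM in controls, against 15.6, 16.6 and 14.98 CPM in lecko skin, with no overlap. Tlr9 was the other gene of this list with the smallest p. Upstream of Irf1, interferon receptors, JAKs and STATs had a median of 0.08, with 13 of 18 positive, 1 at an unadjusted p under 0.05 (higher) and 0 called. Il10rb, a receptor chain for interferon lambda, had a log2 difference of 0.16 (SE 0.07) and Tyk2, a kinase of the interferon receptors, 0.15 (SE 0.07). The median was -0.02 with sex as a covariate, -0.03 with control 1 as the sole control, 0.04 without control 3 and 0.05 without lecko 1.

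Downstream, the MHC class I and other genes that IRF1 is known to activate had a median log2 difference of 0.17, with 21 of 26 positive, 1 higher at an unadjusted p under 0.05 and 0 called. Cd274, which encodes PD-L1, had a log2 difference of 0.34 (SE 0.13), and Casp1, the inflammatory caspase, 0.29 (SE 0.15), both with overlapping groups. This list varied by library as Irf7 did: its mean log2 CPM was 4.2 in control 3 and 4.14 in lecko 2, and between 4.56 and 4.96 in the others. Its median ranged from 0.05 without lecko 3 to 0.38 without lecko 2, was 0.07 without control 3, 0.08 without lecko 1 and 0.30 without control 1, and was -0.02 with sex as a covariate and -0.03 with control 1 as the sole control. Among 6 other IRF family genes and IRF2-binding proteins the median was 0.03, with 3 positive, 1 lower at an unadjusted p under 0.05 and 0 called. Irf2bp2, a corepressor that binds IRF2, was at 129.5, 124.4 and 128.1 CPM (controls) and 110.0, 115.3 and 112.3 CPM in lecko skin, a log2 difference of -0.18 (SE 0.05). Irf2bpl had a log2 difference of 0.16 (SE 0.11). The median of these 6 genes was below 0 with limma-voom (-0.0018), with sex as a covariate (-0.19), with control 1 as the sole control (-0.20) and without control 3 (-0.14), lecko 1 (-0.11) or lecko 2 (-0.04), was 0.11 without control 1 and was 0.01 without lecko 3.

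Most blood cell markers had a positive difference, as Irf8 did, but the mean log2 level of each blood cell list overlapped between the groups, except that of type 2 dendritic and Langerhans cells. There the groups barely parted: control 2 and lecko 2 both had a mean of 4.07 log2 CPM after rounding. In whole skin a different number of cells and a different amount of RNA per cell cannot be told apart. All 15 pan-leukocyte genes had a positive difference (median log2 0.48), with a summed level of 401.9 to 557.4 CPM in controls, against 555.0 to 719.6 CPM in lecko skin. Of 14 macrophage markers 12 were positive (median 0.39), with sums of 786 to 1117 CPM and 1077 to 1255 CPM. Of 12 markers of type 2 dendritic and Langerhans cells 11 were positive (median 0.32), with sums of 328 to 411 CPM and 419 to 463 CPM, which did not overlap. No marker of these lists was at 0 in all libraries, and edgeR called none of their genes, with 8, 4 and 4 of them higher at an unadjusted p under 0.05.

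Of the markers of cells that depend on Irf8, the type 1 dendritic cell list had 5 of 7 tested genes positive (median 0.16), with sums of 72.2 to 82.97 CPM (controls) and 67.7 to 86.9 CPM in lecko skin. Cadm1 gave the largest part of this sum, with 664 to 907 estimated counts in controls and 691 to 829 in lecko skin. The defining genes Xcr1 and Clec9a had 15 to 23 and 11 to 26 estimated counts in controls. In lecko skin they had 18 to 40 and 16 to 29 estimated counts. The plasmacytoid dendritic cell list, which also holds genes abundant in this skin such as Ly6d, had 6 of 8 positive (median 0.25), and at an unadjusted p under 0.05 it had 3 higher genes and 1 lower gene. Its sum, which Ly6d dominates, was 949.7 to 1043 CPM in controls, against 907.3 to 994.5 CPM in lecko skin. Siglech, its most specific gene, had 3 to 17 estimated counts in controls and 24 to 38 in lecko skin. Cox6a2, listed here too, had 651 to 853 in controls and 540 to 716 in lecko skin. Which cells its RNA came from was not tested, so it is not read as a count of plasmacytoid dendritic cells. B cells, which also make Irf8, were near the limit of detection: Ms4a1 had 0 to 2 estimated counts in each group, and Pax5 0 in controls and 0 to 1 in lecko skin. T and NK cell genes were positive in 12 of 12 (median 0.29), with sums of 174.8 to 210.5 CPM in controls, against 189.3 to 232.4 CPM in lecko skin. Thy1 dominates this sum, with 2549 to 2762 estimated counts in controls and 2488 to 3022 in lecko skin. Cd3e had 66 to 102 estimated counts in controls and 78 to 136 in lecko skin. Of 12 neutrophil markers 4 were abundant enough to test (3 positive, median 0.16), and Ly6g had 0 to 1 estimated counts.

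Of the other tissues, the mean levels of the blood endothelial and muscle lists did not overlap between the groups, while those of the lymphatic endothelial, fibroblast and keratinocyte lists did. All 10 blood endothelial genes, Kdr among them, had a negative difference (median log2 -0.22, 6 at an unadjusted p under 0.05 by edgeR), with sums of 447.7 to 488.3 CPM (controls) and 360.8 to 391.1 CPM in lecko skin. Kdr is the gene labelled as deleted in lymphatic endothelium, so this list does not tell blood from lymphatic vessels. Which vessels the lower levels came from was not tested. All 10 skeletal muscle genes were negative as well (median -0.30, 7 at an unadjusted p under 0.05), with sums of 6955 to 7796 CPM against 5097 to 6581 CPM. Of 9 lymphatic endothelial genes 3 were positive (median -0.11), of 8 fibroblast genes 6 (median 0.14) and of 12 keratinocyte genes 2 (median -0.10). Over the 6 libraries Irf8 had r = -0.99 with the mean of the blood endothelial list and 0.80 with the pan-leukocyte mean. These values describe 6 points that share the group contrast. The endothelial mean includes Kdr, the targeted gene, and Irf8 was chosen by the same contrast, so nothing is read from either r. Within groups the values were -0.90 and 0.63. Nothing is read from these either, because the small spread of Irf8 within groups cannot be told from counting noise. The part of any of these cell types in the differences of the members was not tested.

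Set against the mean of the 15 pan-leukocyte genes in the same library, log2 Irf8 was -1.84, -2.09 and -1.70 in controls and -1.89, -1.52 and -1.54 in lecko skin. The groups overlapped on this scale, with a difference of 0.22 in place of 0.66. Against the type 2 dendritic and Langerhans markers the difference was 0.33, from -1.28 ± 0.17 to -0.94 ± 0.14 (SD, n = 3 each), without overlap, and against macrophage markers it was 0.28, with overlap. Control 2 and lecko 2 had the same pan-leukocyte mean, 4.68 log2 CPM, while Irf8 was at 2.59 and 3.16 log2 CPM in these libraries. This pair was picked after its values were seen, and Irf8 was chosen by the same contrast, so nothing is read from it. For Irf4 the difference relative to pan-leukocyte genes was 0.14, for Irf1 -0.02 and for Irf5 -0.24, each with overlapping groups. Irf3 lay lower by 0.52 relative to the leukocyte genes, without overlap. Most of that value is the difference of the leukocyte mean, 0.44, since Irf3 itself differed by -0.09.

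**Figure D5:**
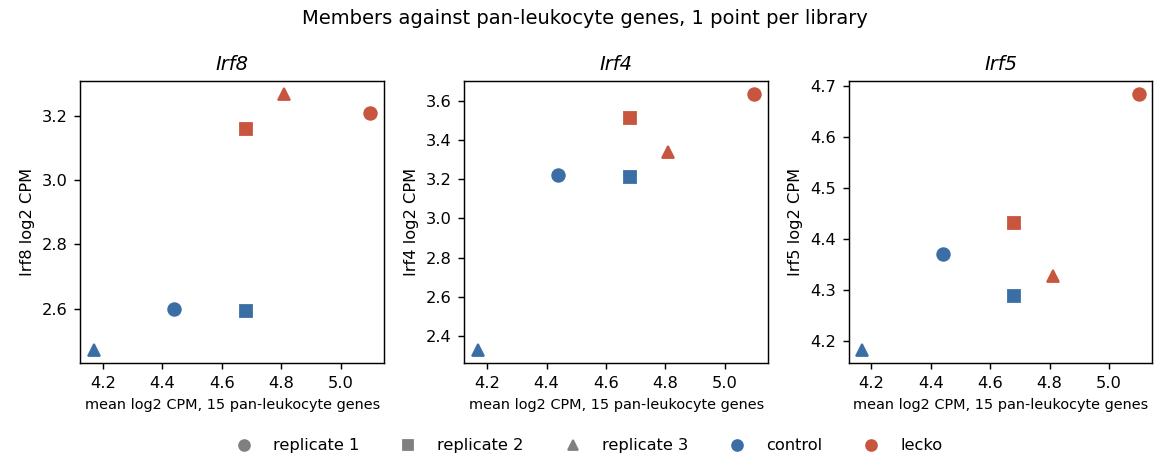
Log2 CPM of Irf8, Irf4 and Irf5 (y axes, which do not start at 0) against the mean log2 CPM of 15 pan-leukocyte genes (x axis), with 1 point per library. The lecko points of Irf8 lie between 3.16 and 3.27 while their leukocyte mean runs from 4.68 to 5.10. Its control points lie between 2.47 and 2.60 while their leukocyte mean runs from 4.17 to 4.68.

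The patterns of the members over the 6 libraries were compared by Pearson's r of log2 CPM, given as a description since all libraries share the group contrast. Irf8 and Irf1 had r = 0.95, and 0.64 after each group was centred on its own mean. Irf8 and Irf4 had r = 0.75 and 0.66 centred, and Irf3 was opposed to Irf8 (-0.87, and -0.44 centred). Irf8 and Irf7 had r = 0.25, and 0.86 centred, and Irf8 and Irf9 had 0.20, and 0.84 centred. Within its groups Irf8 deviated by only -0.08 to 0.06 on the log2 scale, from 95 to 168 estimated counts per library. At that size counting noise cannot be told from a shared pattern, so nothing is read from any centred r of Irf8.

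Among 13581 genes whose mean log2 CPM was 1 or higher, the 10 most like Irf8 were Zfp949 (r = 0.996), Tlr2, Zfp280b, Twsg1, Morf4l1b, Carmil1, Rcbtb2, Ptpro, Slc37a2 and Rrm2b (0.984), and 199 genes (1.47%) were above 0.9. Tlr2, a receptor for bacterial lipoproteins, was at 8.98 CPM in controls, against 11.2 CPM in lecko skin, with r = 0.995, and 0.815 after centring. Zfp949 and Morf4l1b had log2 differences of 1.92 and 1.42, and their r after centring was 0.840 and 0.527. Genes most like the other members were Hells, Med12l and Rrm2b for Irf1, Snx10, Pcyox1l and Dync1i1 for Irf2, and Mast4, Jpt1 and Psmg3 for Irf3. They were Rps6ka1, Angptl1 and Tgfb1 for Irf4 and Cmip, Ccdc69 and Arhgdib for Irf5, the r of all these being 0.982 or more. Rrm2b was thus among those nearest to both Irf8 and Irf1, and Arhgdib, near Irf5, is also 1 of the pan-leukocyte genes.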

How the data were processed

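Estimated counts per gene in ear skin were used as the authors deposited them, not scaled, in 1 column per library. RSEM 1.3.1, HISAT2 2.2.1 and Bowtie2 2.4.5 are listed with build GRCm38.p6 in the submitters' processing notes. What each tool did, which annotation was used and whether strand was counted is not given in the sources used here, so reads of overlapping genes may be shared. Per library 9.6 to 10.5% of values were not whole, and all were rounded.

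The filterByExpr filter (at least 10 counts, total 15) left 14856 genes. These were scaled by TMM and tested by edgeR 4.0.16 under R 4.3.3 with the robust quasi-likelihood fit on group alone. P-values were adjusted by Benjamini-Hochberg and called under 0.05. A prior count of 2 was added for log2 CPM. Total counts were 17242921 to 17825135 per library. Libraries of 1 group differed from each other by a chi-square of 8.14 to 16.82 per degree of freedom, so none was a duplicate. No label pairs the libraries by replicate number, and the main fit did not pair them.

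The members and the 7 pathway and 13 marker lists were chosen with earlier results of these data known. Named are the members, Irf7, Irf9, Kdr, the 2 genes of smallest p in each pathway list (edgeR called none, DESeq2 1 in the Irf8 list), and the 10 genes most like Irf8 and 3 most like each other member. Marker genes and list overlaps named beside these were chosen after their values were seen. Spread over lists is described without a set test. Sex was read from 4 Y-linked genes (threshold 10 CPM). Alternatives were DESeq2 1.42.0, limma-voom (limma 3.58.1), other scalings and filters, a replicate block, sex as a covariate and libraries left out. The scripts were tested on simulated data. Promoter sequences are from RefSeq (GRCm38.p6) and matched 6 of 6 members. Protein sequences were not analysed here, and some genes the rule covers are not reported here.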

Additional observations from a re-analysis of the deposited data

How the results depend on the processing

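Irf1, Irf3, Irf4, Irf5 and Irf8 kept the sign of their difference in all 15 other settings, and 0 of the 6 members were called by any of them. The log2 difference of Irf2 was reversed with sex as a covariate (-0.0265) and with control 1 as the sole control (-0.0329), and it ran from -0.044 without lecko 1 to 0.187 without lecko 2. Over all genes DESeq2 called 32 against 3 by edgeR, including 1 gene of the Irf8 list, and leaving out single libraries gave 3 to 37 (8 without control 1, 37 without control 2, 6 without lecko 2). Same-numbered libraries deviated together in 1 pair (r = 0.337) and hardly in the others (-0.072 and 0.035). With 3 libraries per group these values cannot show whether same-numbered libraries share a litter or batch. With the replicate block 3 genes and 0 members were called, and the difference of Irf8 was 0.67.

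With coding length, chosen after seeing the data, the log2 ratios in the order of levels were 0.26 for Irf3 over Irf2 (adjusted p = 0.0781 by the exact permutation test), 0.88 for Irf2 over Irf5 and 1.80 for Irf1 over Irf8 (both 0.0521), all above the threshold, and -0.63 for Irf5 over Irf1 and -0.24 for Irf8 over Irf4, which were reversed. With 95 to 168 estimated counts per library, Irf8 was the member with the fewest in lecko skin. The fits with control 1 as the sole control assume that it varies like the lecko libraries.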
